A study of Mus musculus with 2 samples.

Results

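The genes that write and erase DNA methylation and that write the Polycomb mark were examined in sorted leukemic stem cells (LSCs) from mice with BCR-ABL-driven chronic myeloid leukemia (CML). They are 10 genes chosen by their symbols, Dnmt1, Dnmt3a, Dnmt3b, Tet1, Tet2, Tet3, Ezh1, Ezh2, Eed and Suz12, and all 10 were found among the 23284 gene symbols of the files. Of these, 3 encode DNA methyltransferases, 3 encode TET enzymes and 4 encode core subunits of Polycomb repressive complex 2 (PRC2). RNA-seq was performed on 1 library from wild type (WT) cells and 1 library from STAP-1 KO cells, both on the C57BL/6J background. The donor cells of both groups were Lin- Sca-1+ c-Kit high (LSK) bone marrow cells, transduced with p210 BCR-ABL and GFP and transplanted into lethally irradiated congenic recipients. GFP+ LSK cells of donor origin were then sorted from primary recipients. The groups differ in the donor's STAP-1 genotype, a targeted disruption that every donor-derived cell carries, while the recipient's own cells are WT in both. The labels give neither the number of mice behind each library nor their age or sex, and the methods give an age range in weeks for all experiments together, not for these libraries. With 1 library per genotype there is no replicate check, no test of the genotype and no p-value for any difference below. Where an error is given it is a 95% exact interval on the number of reads, which covers counting error only and not the spread between mice or library preparations.

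DNA methyltransferases place methyl groups on cytosines of CpG dinucleotides. DNMT1 copies the pattern onto the new strand after replication, and DNMT3A and DNMT3B methylate sites that were unmethylated before. TET enzymes oxidise 5-methylcytosine, which opens the way to its removal. PRC2 methylates lysine 27 of histone H3, and its catalytic subunit is either EZH2, which is the main form in dividing cells, or EZH1, which is the main form in resting cells. EED binds the methylated histone and SUZ12 holds the complex together. In blood, DNMT3A, TET2 and EZH2 are genes in which mutations recur in myeloid disease, and EZH2 and EED have been described as targets of E2F factors, which drive genes of DNA replication.

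The members' promoters, 250 bases before to 50 bases after the transcript start, were taken from RefSeq (GRCm38.p6). Those of Ezh2 and Ezh1 are shown because these catalytic subunits differed in opposite directions, with only Ezh1 past the 2-fold cut-off. Those of Dnmt3b and Tet2 are shown because they were the other members past it. Capitals mark a match to the E2F motif, searched as TTTGGCGC, TTTCCCGC, TTTCGCGC or TTTGCCGC on both strands. The Ezh2 window is chr6:47594981-47595280 (minus strand) and the Ezh1 window is chr11:101226414-101226713 (minus strand). The Dnmt3b window is chr2:153649199-153649498 (plus strand) and the Tet2 window is chr3:133544341-133544640 (minus strand).
Ezh2: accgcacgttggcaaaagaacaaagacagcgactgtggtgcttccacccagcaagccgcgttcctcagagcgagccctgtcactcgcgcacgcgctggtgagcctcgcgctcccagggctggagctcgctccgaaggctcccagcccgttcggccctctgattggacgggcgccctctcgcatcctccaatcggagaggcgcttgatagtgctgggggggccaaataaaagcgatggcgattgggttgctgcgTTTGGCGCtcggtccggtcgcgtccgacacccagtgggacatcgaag
Ezh1: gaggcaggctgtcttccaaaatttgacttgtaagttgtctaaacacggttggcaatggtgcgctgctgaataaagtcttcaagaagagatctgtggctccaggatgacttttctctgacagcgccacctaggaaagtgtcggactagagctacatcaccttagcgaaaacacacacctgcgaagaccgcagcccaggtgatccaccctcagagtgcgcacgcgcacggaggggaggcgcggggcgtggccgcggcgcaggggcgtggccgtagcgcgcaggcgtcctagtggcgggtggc
Dnmt3b: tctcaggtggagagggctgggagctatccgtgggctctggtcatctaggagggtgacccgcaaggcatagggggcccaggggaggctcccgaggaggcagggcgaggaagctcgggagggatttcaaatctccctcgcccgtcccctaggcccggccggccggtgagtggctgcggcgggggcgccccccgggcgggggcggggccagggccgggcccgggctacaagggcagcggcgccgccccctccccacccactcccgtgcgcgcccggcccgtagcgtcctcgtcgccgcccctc
Tet2: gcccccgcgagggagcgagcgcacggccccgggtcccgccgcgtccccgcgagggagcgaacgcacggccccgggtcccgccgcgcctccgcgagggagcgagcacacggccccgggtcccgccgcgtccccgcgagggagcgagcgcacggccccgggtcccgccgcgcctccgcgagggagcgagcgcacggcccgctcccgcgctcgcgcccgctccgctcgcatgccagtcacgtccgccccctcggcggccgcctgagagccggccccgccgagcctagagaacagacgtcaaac

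The E2F motif was found in 3 of the 10 genes (Ezh2, Dnmt1 and Suz12) and in 3 of their 14 listed promoters, against 2.26% of all 32851 promoters. Among the promoters of DNA replication genes, 9 of 23 held it. In Ezh2 the match TTTGGCGC began 4 bases after the start, on the strand of the gene. One of the 3 Dnmt1 promoters held TTTGGCGC 34 bases after its start and TTTCGCGC on the opposite strand, and the Suz12 promoter held TTTCCCGC. None of the 4 letter strings occurred in these windows of Ezh1, Dnmt3b or Tet2. The cell cycle homology motif, searched as TTTGAA or TTCGAA on both strands, was present in 4 of the 14 promoters and in 19.2% of all promoters. The printed promoters held 31 CpG dinucleotides in Ezh2, 23 in Ezh1, 30 in Dnmt3b and 57 in Tet2, against a median of 7 over all promoters.

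Several features of the libraries bear on every difference. The targeted gene Stap1 had 62.0 FPKM (read abundance scaled to transcript length and library size) in WT LSCs and 0.309 FPKM in STAP-1 KO LSCs, on about 1458 and 10 estimated reads, which matches the labels. Many low FPKM values fall on steps of whole reads, from which effective depths were estimated as 7500000 reads for WT and 10470000 reads for STAP-1 KO, so that 3 reads on a transcript of 2000 bases were worth 0.224 and 0.160 FPKM. The antigens used for sorting had lower levels in STAP-1 KO LSCs, with Kit at 468 and 30.1 FPKM, Ly6a (Sca-1) at 285 and 106 FPKM and Ptprc (CD45) at 107 and 38.2 FPKM. Of 12 mast cell and basophil markers, 11 were past a 2-fold cut-off and lower in STAP-1 KO, and none was at 0, and their summed level was 52168 FPKM in WT and 5395 FPKM in STAP-1 KO. Cpa3, a mast cell protease gene, alone had 17984 FPKM in WT. Of 11 granulocyte precursor markers, 6 were at least 2-fold higher and 4 lower, with sums of 958 and 4784 FPKM and none at 0. Those that were higher are Mpo (248 and 1973 FPKM), Elane, Prtn3, Ctsg, Ms4a3 and Cebpe. Those that were lower are Ltf, Camp, Ngp and S100a9, which were named, like Cebpe, after their values were seen. Of 10 monocyte and macrophage markers, 2 were higher and 3 lower (sums of 199 and 151 FPKM), and of the 10 erythroid and megakaryocyte markers listed, none was higher and 6 were lower (sums of 1997 and 1006 FPKM). Of 10 markers of LSK and stem cells, 1 was higher and 5 were lower (sums of 1164 and 393 FPKM). Of 11 lymphoid markers, 1 was higher and 1 lower (sums of 481 and 816 FPKM), and 3 were at 0 in both libraries. The one that was higher is the B cell receptor gene Cd79b, with 3.10 and 17.8 FPKM, and the one that was lower is Il7r, a cytokine receptor gene, with 11.6 and 1.56 FPKM. Most of both sums is Nkg7, with 464 and 795 FPKM, below the cut-off. The B cell factor genes Ebf1 and Pax5, named after their values were seen, are among those at 0. The part of these cell types in the results below was not tested, and in bulk RNA fewer cells of a type cannot be told apart from less RNA per cell.

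The ratio of the libraries also moved with transcript length, since longer transcripts tended to be lower in the STAP-1 KO library. Over the 10865 genes that averaged 1 FPKM or more and had a known length, Spearman's rho between length and log2 ratio was -0.40, a description across genes of 1 pair of libraries. Most of the members have long transcripts, from 2067 bases for Eed to 14369 bases for Tet1. Each member is therefore given beside the median log2 ratio of genes in its length bin, 1 of 20 bins of equal size, and beside a log2 ratio corrected for transcript length and then GC content in such bins. In the bin of the longest transcripts, from 7443 bases upwards, 52.3% of the genes compared were at least 2-fold lower and 2.31% at least 2-fold higher. This bin holds Dnmt3a, Tet1, Tet2 and Tet3.

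**Figure D1:**
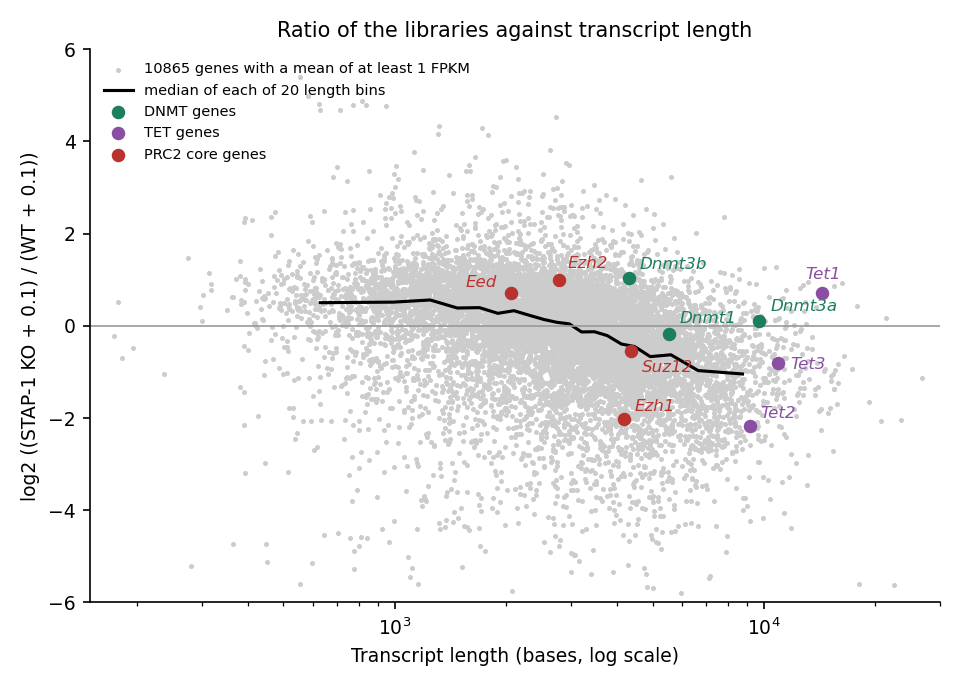
Log2 ratio of the libraries (pseudocount of 0.1 FPKM) against transcript length in bases (log axis) for genes averaging 1 FPKM or more (grey), with the median of each length bin (line) and the members in colour by family. Axis limits leave out 69 of the 10865 genes. Ezh1 and Tet2 lie below the line, Suz12 close to it, and Dnmt3b, Dnmt3a and Tet1 above it.

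Of the 10 members, all of which had at least 0.1 FPKM in both libraries, 3 passed a 2-fold cut-off. Ezh1 and Tet2 were lower in STAP-1 KO LSCs and Dnmt3b was higher. Across the 12507 genes with at least 0.1 FPKM in both libraries, 12.3% were at least 2-fold higher, 22.9% at least 2-fold lower and 35.2% either, so the members' count lies near the background. Ezh2 stood just under the cut-off at 1.99-fold higher, and it passed under each of the 3 other scalings of the libraries but not after the correction for length and GC content. After that correction Dnmt3a and Tet1 passed as higher beside Dnmt3b, and Ezh1 and Tet2 as lower, while 1275 of all genes were higher and 2131 lower. At a 4-fold cut-off Tet2 and Ezh1 were still counted and no member was higher, while 300 of all genes were higher and 1071 lower.

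**Figure D2:**
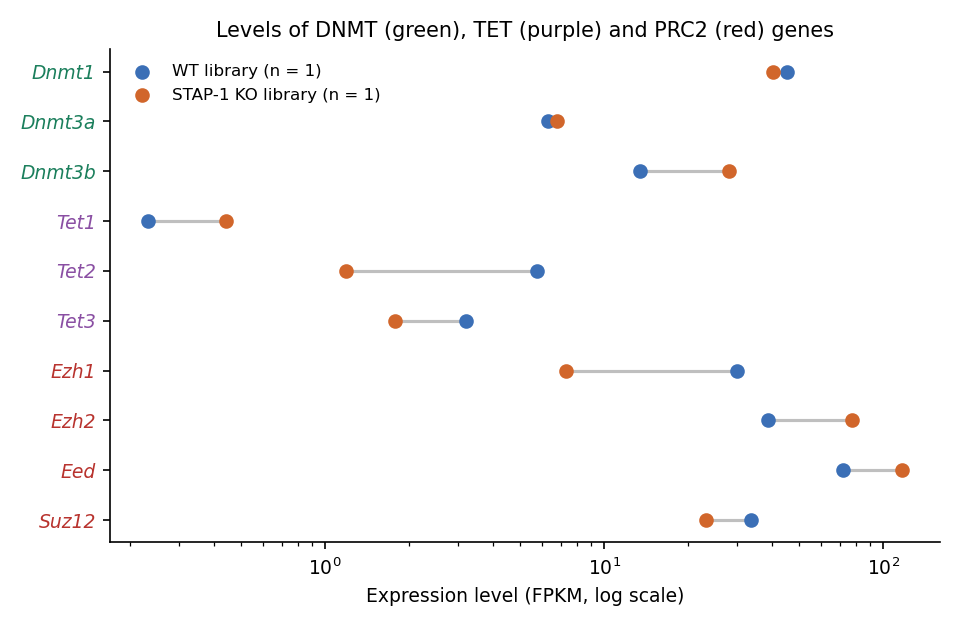
Expression level of each gene in FPKM (log axis) in the WT library (blue) and the STAP-1 KO library (orange), with gene names coloured by family and 1 library per genotype. Tet1 lies lowest, at 0.232 and 0.441 FPKM, and Eed highest, at 71.5 and 117 FPKM, while the widest gaps are those of Tet2 and Ezh1, to the left in STAP-1 KO.

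The catalytic subunits of PRC2 differed in opposite directions. Ezh1, in GRCm38 on chromosome 11 from 101191115 to 101226463 on the minus strand, had 30.05 FPKM in WT LSCs and 7.29 FPKM in STAP-1 KO LSCs. It was 4.12-fold lower (interval from 3.62 to 4.71), with an estimated 897 and 304 reads. The log2 ratio of -2.03 stood beside a median of -0.39 in its length bin and became -1.66 after the correction. Ezh2, on chromosome 6 from 47530139 to 47595341 on the minus strand, had 38.8 FPKM in WT and 77.2 FPKM in STAP-1 KO, which is 1.99-fold higher (interval from 1.83 to 2.17). Its log2 ratio of 0.99 stood beside a bin median of 0.08 and became 0.76 after the correction. Within a library the ratio of both levels does not depend on how the libraries were scaled. The level of Ezh2 was 1.29 times that of Ezh1 in WT and 10.6 times in STAP-1 KO, an 8.21-fold difference (interval from 7.03 to 9.62) that was 5.34-fold after the correction. Ezh2 thus made up 56.4% of the summed Ezh1 and Ezh2 level in WT and 91.4% in STAP-1 KO, while that sum was 68.8 and 84.5 FPKM.

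The noncatalytic core subunits differed less. Eed, on chromosome 7 from 89954654 to 89980983, had the highest level of all members, with 71.5 FPKM in WT LSCs and 117 FPKM in STAP-1 KO LSCs. It was 1.63-fold higher (interval from 1.52 to 1.76), and its log2 ratio of 0.71 stood beside a bin median of 0.33 and became 0.30 after the correction. Suz12, on chromosome 11 from 79993106 to 80034123, had 33.7 FPKM in WT and 23.1 FPKM in STAP-1 KO, 1.46-fold lower (interval from 1.34 to 1.59). Its log2 ratio of -0.54 lay close to the median of -0.45 of its length bin and became -0.39 after the correction. The 4 core genes together had 174 FPKM in WT and 225 FPKM in STAP-1 KO, with 2 of its genes above and 2 below a log2 ratio of 0. Their median log2 ratio was 0.08, beside -0.04 over the 10974 genes averaging 1 FPKM or more. After the correction it was -0.04, where the median over all corrected genes is 0.

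**Figure D3:**
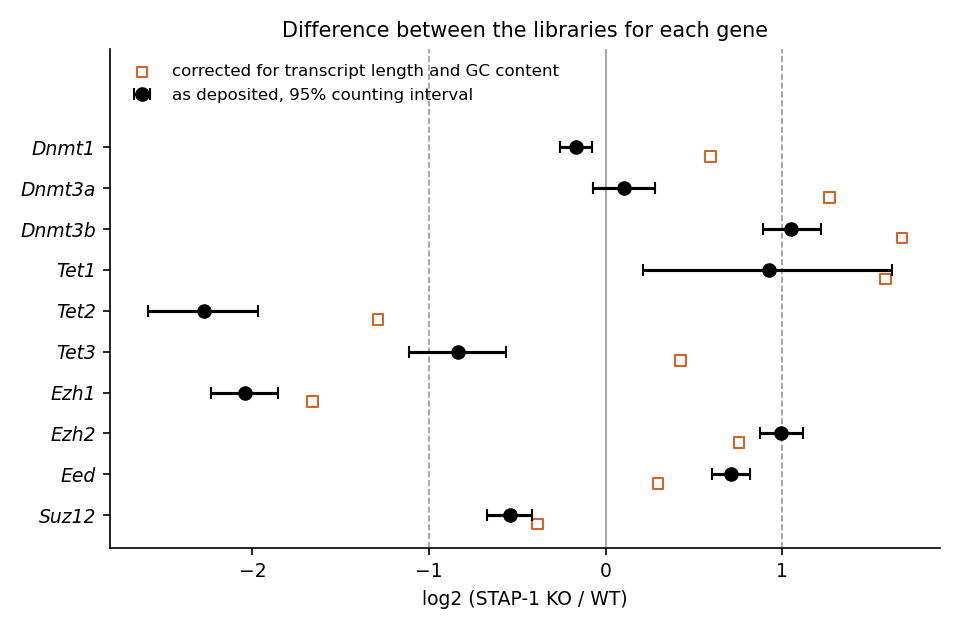
Log2 ratio of STAP-1 KO to WT for each gene as deposited, without a pseudocount (black points, with 95% exact intervals for the counting of reads), and with a pseudocount of 0.1 FPKM after adjustment to transcript length and GC content (orange squares). Dashed lines mark 2-fold. Ezh1 and Tet2 lie left of the lower line with and without the correction, and Dnmt1 and Tet3 lie left of 0 as deposited and right of 0 after it.

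The DNA methyltransferase genes differed between the libraries in their relative levels. Dnmt3b, the de novo enzyme on chromosome 2 from 153649450 to 153687730, had 13.5 FPKM in WT LSCs and 27.9 FPKM in STAP-1 KO LSCs. It was 2.07-fold higher (interval from 1.85 to 2.32), on about 415 and 1203 estimated reads. The median of its length bin lay on the other side of 0, at -0.45, and the log2 ratio of 1.05 became 1.68 after the correction. Dnmt3a, on chromosome 12 from 3806007 to 3914443, had 6.29 FPKM in WT and 6.76 FPKM in STAP-1 KO. Its ratio of 1.07 has an interval from 0.952 to 1.21, so no difference was detectable at this depth. Genes of its length had a median log2 ratio of -1.04, and its own value of 0.10 became 1.27 after the correction, which is past 2-fold. Dnmt1, the maintenance enzyme on chromosome 9 from 20907209 to 20959888, had 45.4 FPKM in WT and 40.4 FPKM in STAP-1 KO, 1.12-fold lower (interval from 1.06 to 1.20). Its log2 ratio of -0.17 stood beside a bin median of -0.63 and became 0.60 after the correction, so that its direction turned.

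Dnmt1 remained the most abundant of the DNA methyltransferase genes in both libraries, but its share of their summed FPKM was 69.6% in WT and 53.8% in STAP-1 KO. The share of Dnmt3b was 20.7% and 37.2%, and that of Dnmt3a was 9.66% and 9.0%. The level of Dnmt3b was 2.14 times that of Dnmt3a in WT and 4.13 times in STAP-1 KO, a 1.93-fold difference (interval from 1.64 to 2.28). After the correction this difference was 1.33-fold.

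The TET genes were the lowest of the families, with a summed 9.19 FPKM in WT LSCs and 3.42 FPKM in STAP-1 KO LSCs. Tet2, the most abundant TET gene in WT, lies on chromosome 3 from 133463679 to 133545139 on the minus strand. It had 5.77 FPKM in WT and 1.19 FPKM in STAP-1 KO, 4.84-fold lower (interval from 3.91 to 6.03), with an estimated 388 and 112 reads. The log2 ratio of -2.18 stood beside a bin median of -1.04 and became -1.29 after the correction. Tet3, on chromosome 6 from 83362373 to 83459084, had 3.19 FPKM in WT and 1.79 FPKM in STAP-1 KO, 1.79-fold lower (interval from 1.48 to 2.16). This is less of a difference than the median of its length bin, and its log2 ratio of -0.80 became 0.42 after the correction. Tet1, on chromosome 10 from 62804570 to 62908996, had 0.232 FPKM in WT and 0.441 FPKM in STAP-1 KO. Its ratio of 1.90 rests on about 25 and 65 estimated reads and has an interval from 1.16 to 3.08. The log2 ratio of Tet1, 0.70 beside a bin median of -1.04, became 1.58 after the correction and so passed 2-fold. However, Tet1 averaged under 1 FPKM, whereas the bin medians were set on genes averaging 1 FPKM or more. In the same length bin Asxl3, at 0 FPKM in both libraries, received a corrected value of 0.89. The passing of Tet1 therefore rests on the shift of its bin.

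The order of the TET genes therefore differed between the libraries. In WT the level of Tet3 was 0.553 times that of Tet2, and in STAP-1 KO it was 1.5 times that of Tet2. This is a 2.71-fold difference (interval from 2.04 to 3.62). The level of Tet2 was 24.8 times that of Tet1 in WT and 2.71 times in STAP-1 KO, a 9.17-fold difference (interval from 5.36 to 15.6) that rests on about 25 reads of Tet1 in WT and was 3.61-fold at a pseudocount of 1 FPKM. The share of Tet2 in the summed level of the family was 62.7% in WT and 34.9% in STAP-1 KO. Against all genes listed above 0, Tet2 exceeded 42.5% of them in WT and 28.1% in STAP-1 KO, Tet1 exceeded 10.9% and 18.8%, and Eed exceeded 88.5% and 92.8%.

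**Figure D4:**
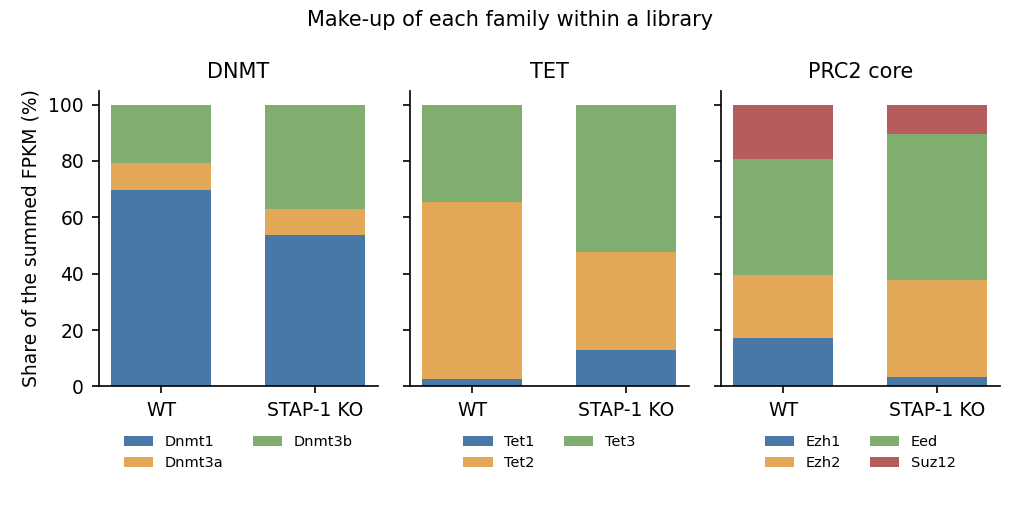
Share of each gene in the summed FPKM of its family, in percent, for the WT and the STAP-1 KO library (1 library each). Ezh1 and Suz12 take smaller shares of the PRC2 core in STAP-1 KO, Tet2 takes 62.7% of the TET sum in WT and 34.9% in STAP-1 KO, and Dnmt3b takes 20.7% and 37.2% of the DNMT sum.

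The partners of DNA methyltransferases were described from a list of 7 genes, of which 1 was at least 2-fold higher and none lower. Hells, which encodes a chromatin remodeler needed for DNA methylation, had 22.6 FPKM in WT LSCs and 59.1 FPKM in STAP-1 KO LSCs, 2.62-fold higher (interval from 2.44 to 2.81). Uhrf1, which brings DNMT1 to newly replicated DNA, had 29.6 and 51.3 FPKM, a 1.73-fold difference below the cut-off (interval from 1.59 to 1.89), with a corrected log2 ratio of 1.10 that is past 2-fold. The related Uhrf2 had 35.4 and 37.5 FPKM. Usp7, a deubiquitinase that stabilises DNMT1, had 36.9 and 22.6 FPKM, and the corepressor gene Trim28 had 70.7 and 64.5 FPKM. Dnmt3l, a cofactor of de novo methylation in germ cells, was listed at 0 FPKM in WT and at 0.327 FPKM in STAP-1 KO, on about 5.5 estimated reads, and the zinc finger gene Zfp57 had 0.354 and 0.317 FPKM. Among them 5 averaged 1 FPKM or more, with a median log2 ratio of 0.08 that was 0.34 after the correction.

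Among 8 methyl-CpG readers and their relatives, 1 was higher and 1 lower at the cut-off, with a median log2 ratio of -0.61 over 6 genes that was -0.16 after the correction. Mbd4, a glycosylase that repairs deaminated methylcytosine, had 3.67 FPKM in WT and 7.72 FPKM in STAP-1 KO and was higher. Zbtb38 had 8.01 and 2.25 FPKM and was lower. Zbtb4 had 1.03 and 0.0376 FPKM, the latter under the floor of 0.1 FPKM, and Zbtb33 had 1.17 and 0.645 FPKM. Of the MBD proteins, Mbd2 had 153 and 103 FPKM, Mbd1 29.18 and 18.03 FPKM and Mbd3, a subunit of the NuRD complex, 73.3 and 137 FPKM.

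Of 14 genes that supply, bind or follow the TET reaction, 3 were higher and 1 was lower. The median log2 ratio of 12 genes was 0.39, with 9 above 0 and 3 below. Idh2, which makes the 2-oxoglutarate that TET enzymes consume, had 110 FPKM in WT and 367 FPKM in STAP-1 KO, 3.34-fold higher (interval from 3.15 to 3.55). Tdg, the glycosylase that removes oxidised methylcytosine, had 0.836 and 2.40 FPKM, and the glycosylase gene Neil3 had 13.2 and 27.4 FPKM. Ogt, which encodes a glycosyltransferase that binds TET proteins, had 65.7 and 27.1 FPKM and was 2.42-fold lower (interval from 2.27 to 2.59). Gadd45g had 24.0 and 13.1 FPKM, below the cut-off. After the correction Neil3 (log2 ratio of 0.66) and Ogt (-0.91) were no longer past 2-fold, whereas Gadd45g (-1.04) was.

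Of 11 PRC2 accessory genes, 2 were higher and 2 lower, and the median log2 ratio of 9 genes was 0.02. This median was 0.71 after the correction and 0.79 over the 5 genes averaging 5 FPKM or more. Rbbp7, a histone chaperone subunit, had 139 FPKM in WT and 297 FPKM in STAP-1 KO, and its relative Rbbp4 had 90.1 and 156 FPKM, the latter below the cut-off. The Polycomb-like genes Mtf2 and Phf1 differed in opposite directions, with 24.97 and 52.6 FPKM for Mtf2 and 6.25 and 0.774 FPKM for Phf1. Mtf2 was 2.10-fold higher (interval from 1.93 to 2.29) and Phf1 8.07-fold lower (interval from 4.85 to 13.7). Jarid2, which helps to bring PRC2 to its targets, had 12.6 and 5.56 FPKM and was lower. The log2 ratios of Jarid2 (-1.17) and Rbbp7 (1.10) became -0.58 and 0.71 after the correction, neither past 2-fold, whereas that of Rbbp4 became 1.07 and passed.

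PRC1, the complex that ubiquitinates histone H2A, was represented by 25 genes, of which 3 were higher and 3 lower. The median log2 ratio of 21 genes was -0.06, and it was 0.04 with the libraries scaled to equal sums and 0.23 after the correction. The genes that were higher are Pcgf5 (26.04 FPKM in WT and 63.4 FPKM in STAP-1 KO), Pcgf6 (17.5 and 39.6 FPKM) and Pcgf1 (4.01 and 8.32 FPKM), which encode subunits of variant PRC1 complexes. After the correction none of the 3 was past 2-fold, with log2 ratios of 0.63, 0.77 and 0.56. Cbx7, which reads the Polycomb mark, had 3.28 and 1.03 FPKM and was lower, as was the corepressor gene Bcor with 11.5 and 2.87 FPKM. The other gene that was lower, Bcorl1, is named after its values were seen (0.586 and 0.226 FPKM). Both have long transcripts, and neither was past 2-fold after the correction. The log2 ratio of Bcor went from -1.97 to -0.81 and that of Bcorl1 from -1.07 to 0.11, the latter turning direction. Bcorl1 averaged under 1 FPKM, whereas its shift was set on genes averaging 1 FPKM or more.

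Of the 8 genes for H3K27 demethylases and the BAP1 complex, which act against Polycomb marks, none was higher and 4 were lower. The median log2 ratio of 7 genes was -1.05, and -0.11 after the correction. Kdm6a, a demethylase of the PRC2 mark, had 15.2 FPKM in WT and 5.53 FPKM in STAP-1 KO, 2.75-fold lower (interval from 2.40 to 3.15), with a log2 ratio of -1.44 that became -1.08. Asxl1 had 12.1 and 5.79 FPKM, Asxl2 had 7.79 and 3.72 FPKM and Foxk1 had 1.77 and 0.554 FPKM. Corrected log2 ratios of these were -0.11, -0.65 and -0.34, none past 2-fold. Bap1 had 46.4 and 45.5 FPKM, Foxk2 14.6 and 7.76 FPKM and Kdm6b 1.16 and 1.04 FPKM, and the direction of Kdm6b and Bap1 turned after the correction (1.20, past 2-fold, and 0.25), while Asxl3 was at 0 in both libraries. Of 11 trithorax genes, which act opposite to Polycomb on histone H3 lysine 4, 1 was higher (Dpy30, 119 and 308 FPKM) and 2 were lower (Kmt2c, 4.01 and 1.02 FPKM, and Kmt2d, 2.42 and 0.925 FPKM, listed under the older symbol Mll2, which has been used for more than 1 gene). Wdr5 had 40.1 and 68.1 FPKM and Ash2l 70.3 and 111 FPKM, and the median of 10 genes was 0.15. After the correction Dpy30 (log2 ratio of 0.60) and Kmt2c (-0.92) were no longer past 2-fold, the median was 0.43 over 9 genes, and Kmt2d had no length to correct by.

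**Figure D5:**
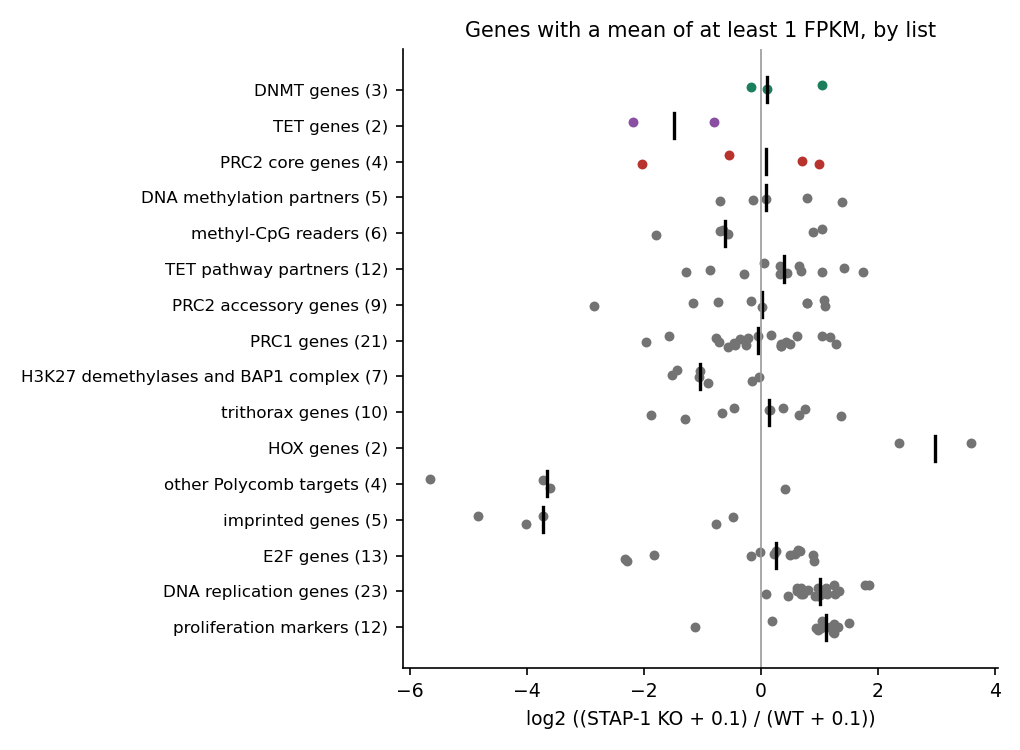
Log2 ratio (pseudocount of 0.1 FPKM) of every gene averaging 1 FPKM or more in the lists of members, partners, target genes and replication genes, with the number of genes in parentheses and the median as a black bar. The PRC2 core and accessory genes spread to both sides of 0, the 7 demethylase and BAP1 genes lie below 0, and the 23 DNA replication genes lie above 0.

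Genes known as targets of Polycomb were mostly at 0. Of 39 HOX genes 28 were at 0 in both libraries, and 4 were at least 2-fold higher in STAP-1 KO and none lower among the 5 that could be compared. Hoxa9, a regulator of stem and progenitor cells, had 0.452 FPKM in WT and 2.73 FPKM in STAP-1 KO, a 6.04-fold difference (interval from 3.19 to 13.3) on about 10.2 and 86.3 estimated reads. Hoxa7 had 0.153 and 2.96 FPKM, and its ratio of 19.3 rests on about 2.1 reads in WT (interval from 5.29 to 169). The others past the cut-off, named after their values were seen, are Hoxa10 (0.170 and 1.47 FPKM, interval of the ratio from 2.71 to 43.6) and Hoxb2 (0.375 and 0.874 FPKM, interval from 0.717 to 9.77). After the correction Hoxb2 was below 2-fold, with a log2 ratio of 0.84. Within the HOXA cluster, which was singled out after the values were seen, 6 of 11 genes had a higher value in STAP-1 KO, none a lower one and 5 were at 0 in both. Of these 6, Hoxa2, Hoxa4 and Hoxa5 were at 0 in WT. They rest on about 2.1, 8.4 and 10 estimated reads in STAP-1 KO, the deeper library. Of the 28 genes of the other clusters, 23 were at 0 in both libraries, 3 had a higher value in STAP-1 KO and 2 a lower one.

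Among 20 other Polycomb targets, mostly regulators of development, 12 were at 0 in both libraries and 2 were lower at the cut-off. These are the neighbouring cell cycle inhibitor genes Cdkn2a and Cdkn2b, which are textbook targets of PRC2. Cdkn2b had 55.2 FPKM in WT and 4.43 FPKM in STAP-1 KO, 12.4-fold lower (interval from 9.37 to 16.7). Cdkn2a had 4.71 and 0.265 FPKM, the latter on about 1.9 estimated reads, so that its ratio of 17.8 has an interval from 4.18 to 147. Cdh2, which encodes N-cadherin, had 8.23 and 0.0646 FPKM, the latter under the floor, and Cdkn1c had 0.944 and 1.30 FPKM. Over these 4 genes, which averaged 1 FPKM or more, the median log2 ratio was -3.66, but Cdkn2a and Cdh2 pass this filter through their WT values alone. The median was -2.34 over 8 genes with no filter, and -2.65 at a pseudocount of 1 FPKM. Whether a lower share of mast cells or other cells moves these values was not tested.

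Germline and imprinted genes are known to be controlled by DNA methylation. Of 18 germline genes 13 were at 0 in both, the 1 that could be compared was below the cut-off, and no value exceeded 0.263 FPKM. Of 17 imprinted genes 5 were at 0 in both, 2 were higher and 2 lower. The genes that were lower are the growth regulators Grb10 (24.2 FPKM in WT and 1.41 FPKM in STAP-1 KO) and Igf2r (3.84 and 0.197 FPKM). Those that were higher, named after their values were seen, are Dlk1 (0.104 and 0.601 FPKM) and Mest (0.122 and 0.526 FPKM), each on under 4 estimated reads in WT, with intervals of the ratio from 2.06 to 34.3 and from 1.15 to 45.4. Plagl1 had 4.41 and 0.0567 FPKM, the latter under the floor, Impact had 12.4 and 8.89 FPKM, and Zrsr1 had 1.62 and 0.914 FPKM. The median over the 5 imprinted genes averaging 1 FPKM or more was -3.73, and it was -0.62 over 12 genes with no filter on low values. The first of these is the value of Igf2r itself, and Igf2r, Plagl1 and Zrsr1 reach 1 FPKM in WT alone.

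Genes of DNA replication, which are expressed in S phase, had higher values in STAP-1 KO throughout. Of 23 genes, 12 were at least 2-fold higher and none lower, all 23 had a log2 ratio above 0, and the median was 1.01 as deposited and 0.96 after the correction. The replication factor genes Gins2 (23.6 and 84.9 FPKM), Gins1 (18.4 and 63.0 FPKM), Cdc45 (31.1 and 78.3 FPKM), Rfc4 (64.4 and 155 FPKM) and Prim1 (51.2 and 122 FPKM) were among those that were higher. After the correction Cdc45, Rfc4 and Prim1 were below 2-fold, with log2 ratios of 0.96, 0.55 and 0.70. Pcna (0.47), Rfc3 (0.51) and Rfc5 (0.99) also fell below it, while Mcm6 (1.34) and Cdc6 (1.38) newly passed. These genes were named after their values were seen. As deposited, the log2 ratio of Ezh2 (0.99) lay near this median and that of Eed (0.71) below it, whereas those of Dnmt1 (-0.17) and Suz12 (-0.54) were lower than that of any of the 23 genes. After the correction this no longer held for Dnmt1, at 0.60, which was above Rfc4, for example, while Suz12 was at -0.39. Ezh2 was then at 0.76, below the corrected median of 0.96, and Eed at 0.30, lower than any of the 23 genes. Of 12 proliferation markers 8 were higher and 1 lower, with Cdk1 at 36.5 and 103 FPKM and Aurka at 49.4 and 124 FPKM. Of the 8, Ccnb1, Plk1 and Cdc20, named after their values were seen, fell below 2-fold after the correction (0.75, 0.90 and 0.93). The gene that was lower is Mki67, named after its values were seen, with 17.4 and 7.89 FPKM and a log2 ratio of -1.13 that became -0.16 after the correction. Birc5, Bub1 and Aurkb were likewise higher, with 118 and 276 FPKM, 14.3 and 34.2 FPKM and 67.9 and 161 FPKM. The paper measured cell cycle status by flow cytometry, with Ki67 in LSCs and BrdU in GFP+ Lin- c-Kit+ cells. It reports no significant difference between the genotypes in these measures. Whether the RNA values above reflect a difference in cycling was not tested.

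Of 13 genes for E2F factors, the RB family and their partners, none was higher and 3 were lower, and the median log2 ratio was 0.25. Rb1, which encodes the RB protein that restrains E2F factors, had 54.2 FPKM in WT and 10.7 FPKM in STAP-1 KO, 5.07-fold lower (interval from 4.58 to 5.60). Its relative Rbl2 had 31.6 and 8.86 FPKM, 3.56-fold lower (interval from 3.18 to 3.99), and E2f2 had 7.83 and 1.52 FPKM. The partner gene Tfdp1 had 47.4 and 88.1 FPKM and E2f5 5.28 and 9.98 FPKM, both below the cut-off. After the correction the log2 ratios of Rb1, Rbl2 and E2f2 were -2.17, -1.23 and -1.42. E2f3 and Rbl1, named after their values were seen, passed 2-fold as higher after the correction, where their log2 ratios of 0.50 and 0.67 became 1.13 and 1.07. The part of cell composition in the differences of these genes and of Ezh1 and Ezh2 was not tested.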

How the data were processed

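RNA was measured in 1 WT and 1 STAP-1 KO library. RNA was extracted with an RNeasy kit per the methods or a miRNeasy kit per the labels, and cDNA was made with a low-input SMART-Seq kit. The deposited FPKM values were made by the authors with TopHat2 2.0.13, Bowtie2 2.2.3, SAMtools 0.1.19 (the methods give another version) and Cufflinks 2.2.1 on mm10, per the labels, and the methods name Cuffnorm, a normalising tool of the last package, for the FPKM step. The gene annotation and the scaling option used are not given in the sources used here.

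Python (3.11.15) was used with scipy (1.17.1), pandas (2.3.3), numpy (2.4.6) and matplotlib (3.10.9). A gene counted as higher or lower when it was past 2-fold and reached 0.1 FPKM in each library, and log2 ratios used a pseudocount of 0.1 FPKM, which understates the change of low genes. List medians used genes averaging 1 FPKM or more, as did the bin medians of the correction. Genes under this level took the shift of the bins they fall in. Lengths, GC content and coordinates came from GENCODE M21 (GRCm38, the same build as mm10), using the longest transcript with a RefSeq accession where there was one. Of the symbols 20911 matched as written, 1901 by an older symbol and 472 not at all. Effective depths were read from genes of 1 transcript below 0.3 FPKM, where 302 WT values came out whole in 48.3% and 369 STAP-1 KO values in 49.9% of cases (tolerance of 0.01 reads). Estimated reads of genes with several transcripts are approximate. Intervals for the ratio of 2 read counts are exact Clopper-Pearson intervals at 95%, and those of a ratio between genes add both errors in quadrature. Counting, intervals, depth and correction were checked on simulated data.

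The members and the 20 further lists were chosen with earlier results of these data known. The genes named are all 10 members, Stap1, 3 sorted antigens, all genes of lists of up to 8 and up to 5 of longer lists with the largest ratio at a pseudocount of 1 FPKM. Marker lists of other cell types are given by counts and sums with some genes named, and 3 genes of the lists (trithorax and globin) were not matched to the files. Some genes that this rule selects are not reported here. Alternatives changed the floor, the cut-off, the pseudocount, the scaling, the filter and the correction.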

Additional observations from a re-analysis of the deposited data

How the results depend on the processing

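Ezh1 and Tet2 were lower at the cut-off under every floor, cut-off, scaling and correction tried, and Dnmt3b was higher under all but the 4-fold cut-off. Ezh1 and Tet2 were above 1 FPKM in each library, and the scalings moved log2 ratios by 0.011 to 0.104. Floors and scalings therefore could not change the calls of Ezh1 and Tet2. The number of members that were higher was 1 as reported, 4 at a 1.5-fold cut-off, 0 at a 4-fold cut-off, 2 with libraries scaled to a median ratio of 1 or to equal upper quartiles, 3 with libraries scaled to equal sums and 3 after adjustment to transcript length and GC content (the correction). Over all genes, 1538 were higher as reported, 3201 higher and 4101 lower at a 1.5-fold cut-off, and 300 higher and 1071 lower at a 4-fold cut-off. Those higher were 1664 with a median ratio of 1, 1571 with equal upper quartiles, 1889 with equal sums and 1275 after the correction. After the correction the median log2 ratio was 1.27 for the DNMT genes, -0.43 for the TET genes and -0.044 for the PRC2 core genes, the last with its direction turned. That of the TET genes, -1.49 over Tet2 and Tet3, was -1.11 at a pseudocount of 1 FPKM and -0.80 with Tet1 included. Dnmt1 and Tet3 turned direction after the correction (0.60 and 0.42). The median of the PRC1 genes turned with libraries scaled to equal sums (0.044), after the correction (0.23) and with genes of at least 5 FPKM (0.17), and that of the PRC2 accessory genes turned with no filter on low values (-0.075) and was 0.71 after the correction and 0.79 with genes of at least 5 FPKM. The median over all genes, -0.04, was 0.0011 with a median ratio of 1, 0.060 with equal sums and 0.045 over genes of at least 5 FPKM. The cause of these changes was not tested. No paired analysis was possible because each genotype has 1 library. Depth limits Tet1, the HOX genes and Cdkn2a, which rest on few reads in 1 or both libraries.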
